A study of Mus musculus with 6 samples.

Results

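Aminoacyl-tRNA synthetases are the enzymes that join each amino acid to its matching tRNA before the ribosome can use it. The genes described here are 36 synthetase genes, found by their symbols among the 43432 genes of the deposited table. Of these, 20 encode enzymes or subunits that work in the cytosol and 16 encode enzymes that work in mitochondria. All 36 were found, and all 36 passed the filter on low values (an average of 1 or more normalized counts at 8 or at 11 weeks). The list has no mitochondrial enzyme for aspartate, and the mitochondrial enzymes for glycine and lysine come from the genes counted here as cytosolic, Gars and Kars.

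RNA came from tumor associated macrophages of female FVB/N mice with the MMTV-PyMT transgene, in which a mouse mammary tumour virus promoter drives polyomavirus middle T antigen mainly in mammary epithelium. Mammary glands were taken at 8 weeks (3 libraries) and at 11 weeks (3 libraries), and all 6 libraries share the transgene, so no gland without the oncogene serves as a control. Live cells carrying CD45, MHC class II and CD14 were sorted by flow cytometry after enzyme digestion. The titles number the samples of each age with the prefix "an", which the labels do not spell out. If it does not mark separate animals, the p-values reflect only sample-to-sample spread, which may be technical.

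Reads counted in genes, as recovered from the normalized counts, came to 38784433 to 75004879 per library. Of a library's normalized counts, 35.2% to 51.8% were mitochondrial ribosomal RNA. All 8 macrophage markers checked (Csf1r, Adgre1, Cd68, Mertk, Fcgr1, C1qa, C1qb and C1qc) were tested, with summed levels of 231982 to 259340.6 normalized counts in the 8-week group and 222613.8 to 265644.6 in the other. A normalized count is a read count divided by 1 size factor per library. Fold changes below are differences of mean log2(normalized count + 1), 11 minus 8 weeks, and adjusted p-values come from limma over all 21675 genes tested.

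Each cytosolic enzyme serves the cell's main protein synthesis, and 8 of the genes listed here (Dars, Eprs, Iars, Kars, Lars, Mars, Qars and Rars) encode members of the multisynthetase complex, which is held together by the scaffold proteins Aimp1, Aimp2 and Eef1e1. The mitochondrial enzymes are encoded in the nucleus, imported, and charge the tRNAs used to translate the few proteins of the mitochondrial genome. When amino acids run short, uncharged tRNA activates the kinase Eif2ak4 (GCN2), and the transcription factor ATF4 is then made and turns on genes for amino acid synthesis, amino acid transport and, among the synthetases, mainly the cytosolic ones. ATF4 binds with C/EBP partners to a composite DNA element.

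Among synthetase genes with a matched promoter, that element, searched as TGATGNAA on either strand, was present in 5 cytosolic genes and in no mitochondrial one. RefSeq promoters (GRCm38.p6, 250 bases before to 50 bases after the transcription start) were matched for 13 of the 20 cytosolic and 14 of the 16 mitochondrial genes. Cars, Hars, Lars, Nars, Rars, Vars, Wars, Hars2 and Pars2 had no matched promoter and were not searched. The element stood in 5 of 13 cytosolic genes (38.5%) and in 0 of 14 mitochondrial genes, against 4.51% of all 27025 genes in the promoter table and 10 of 29 ATF4 target genes (34.5%). By single promoters the background was 3.97% of 32851. The 5 genes are Aars, Gars, Iars, Tars and Yars, and the stretches around their matches are shown to let the shared letters be seen. They are written 5′ to 3′ on the gene's own strand, with the match in capitals. Yars holds it as TGATGNAA, and the other genes as its reverse complement TTNCATCA.
Aars, first match, chr8:111033690-111033777, plus strand: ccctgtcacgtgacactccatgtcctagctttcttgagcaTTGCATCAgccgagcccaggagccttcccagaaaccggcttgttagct
Aars, second match, chr8:111033840-111033869, plus strand: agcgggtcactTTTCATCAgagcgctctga
Gars, chr6:55037931-55038000, plus strand: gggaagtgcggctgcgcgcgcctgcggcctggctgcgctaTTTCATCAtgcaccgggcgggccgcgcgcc
Iars, chr13:49682126-49682155, plus strand: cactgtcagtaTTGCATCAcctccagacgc
Tars, chr15:11399659-11399713, minus strand: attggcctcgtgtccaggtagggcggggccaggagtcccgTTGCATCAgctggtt
Yars, chr4:129189895-129189924, plus strand: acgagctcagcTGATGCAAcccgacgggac
Relative to the annotated start, the matches begin at positions -112 and 10 in Aars, -30 in Gars, 8 in Iars, -15 in Tars and 4 in Yars. A match describes these letters and does not show binding. The log2 fold changes of these 5 genes ran from 0.07 (Gars) to 0.57 (Aars), with Iars at 0.51, Yars at 0.35 and Tars at 0.20, and none passed the test.

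Cytosolic synthetase transcripts leaned higher at 11 weeks, but no single gene of the 36 passed the test across all genes. Of the 20 cytosolic genes 17 had a positive log2 fold change (15 with libraries scaled to their totals, 14 without 8-week replicate 3), with a median of 0.32, where 52.8% of all genes tested were positive with a median of 0.05. Of the 16 mitochondrial genes 10 were positive, with a median of 0.09. Among the 10727 genes averaging 100 or more normalized counts, 48.3% were positive and the median was -0.02. The smallest adjusted p among the 36 was 0.387 (limma), where 0.0507% of all genes tested passed at 0.05 and 0.0369% passed as higher. At an unadjusted p under 0.05 limma gave 2 of the 36, Hars and Lars2, both higher, against 8.03% of all genes tested (4.76% higher and 3.27% lower). The edgeR quasi-likelihood test on recovered reads also called 0 of the 36 (background 0.0646%) and DESeq2 called 1, Hars (background 2.63%).

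**Figure D1:**
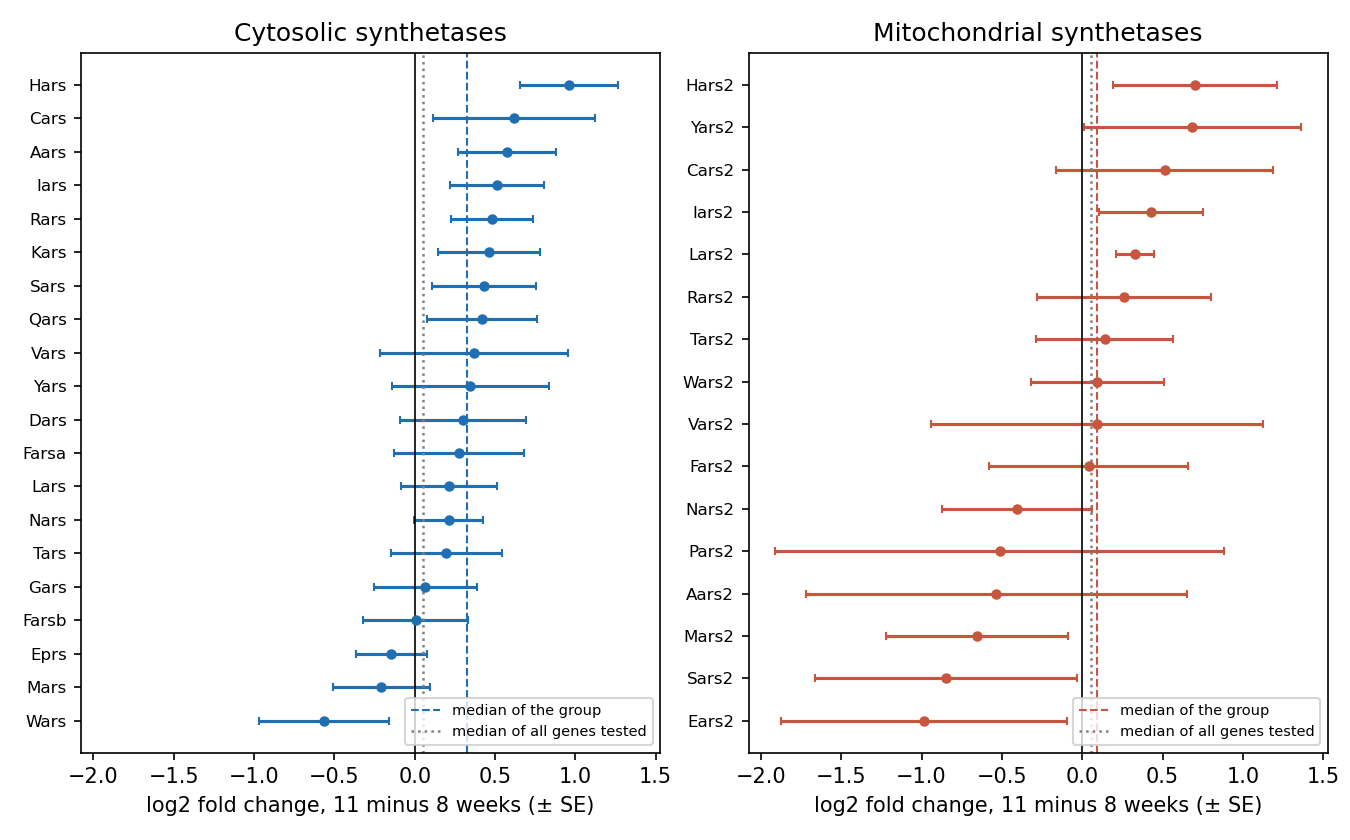
Log2 fold change (11 minus 8 weeks, x axis, ± SE, 3 libraries per age) of each of the 20 cytosolic (left) and 16 mitochondrial (right) synthetase genes, with dashed lines at each group's median and dotted lines at the median of all genes tested. Cytosolic genes run from -0.57 (Wars) to 0.96 (Hars) around a median of 0.32, and mitochondrial genes run from -0.98 (Ears2) to 0.70 (Hars2) with wider errors around a median of 0.09.

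The cytosolic lean was not shared by all 11-week libraries. Summed over the 20 cytosolic genes, the 8-week libraries held 31061.1, 30598.8 and 26373.6 normalized counts and the 11-week libraries 29021.8, 37565.2 and 37242.8. Thus 11-week replicates 2 and 3 stood above every 8-week library, while 11-week replicate 1 lay inside the 8-week range. The means were 29344 ± 2583 and 34610 ± 4842 (SD, n = 3 per age). Counted gene by gene, 11-week replicate 3 was the highest of the 6 libraries for 10 of the 20 cytosolic genes, and 8-week replicate 3 the lowest for 7. The cytosolic median log2 fold change was 0.14 without 8-week replicate 3 and 0.17 without 11-week replicate 3.

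Summed levels of the markers of several other cell types lay apart between the ages. The mammary epithelial list (10 of 10 tested, 9 with a positive log2 fold change, 1 passing limma) summed to 7644 to 11363.8 normalized counts at 8 weeks and 23859.4 to 45945.5 at 11 weeks. It was highest, at 45945.5, in 11-week replicate 1. The neutrophil list (6 of 9 tested, Elane at 0 in every library) summed to 1430.7 to 3383.2 and 3977.1 to 4795.4, and the fibroblast list (7 of 7 tested) to 687.6 to 1080.6 and 1347.7 to 3055.2. B cell markers (6 of 6 tested, 3 positive) summed to 11324.1 to 14435.6 at the earlier age and 7132.2 to 9504.9 at the later one, and T cell markers (8 of 8 tested, 5 positive) to 3956.6 to 4932.6 and 2581.1 to 3894.3. In these 2 lists the median log2 fold change had the opposite sign to the sum, 0.72 for B cell and 2.23 for T cell markers, and no gene of either passed limma. Their part in the synthetase levels was not tested. In such bulk RNA, fewer cells of a type and less RNA per cell cannot be told apart.

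**Figure D2:**
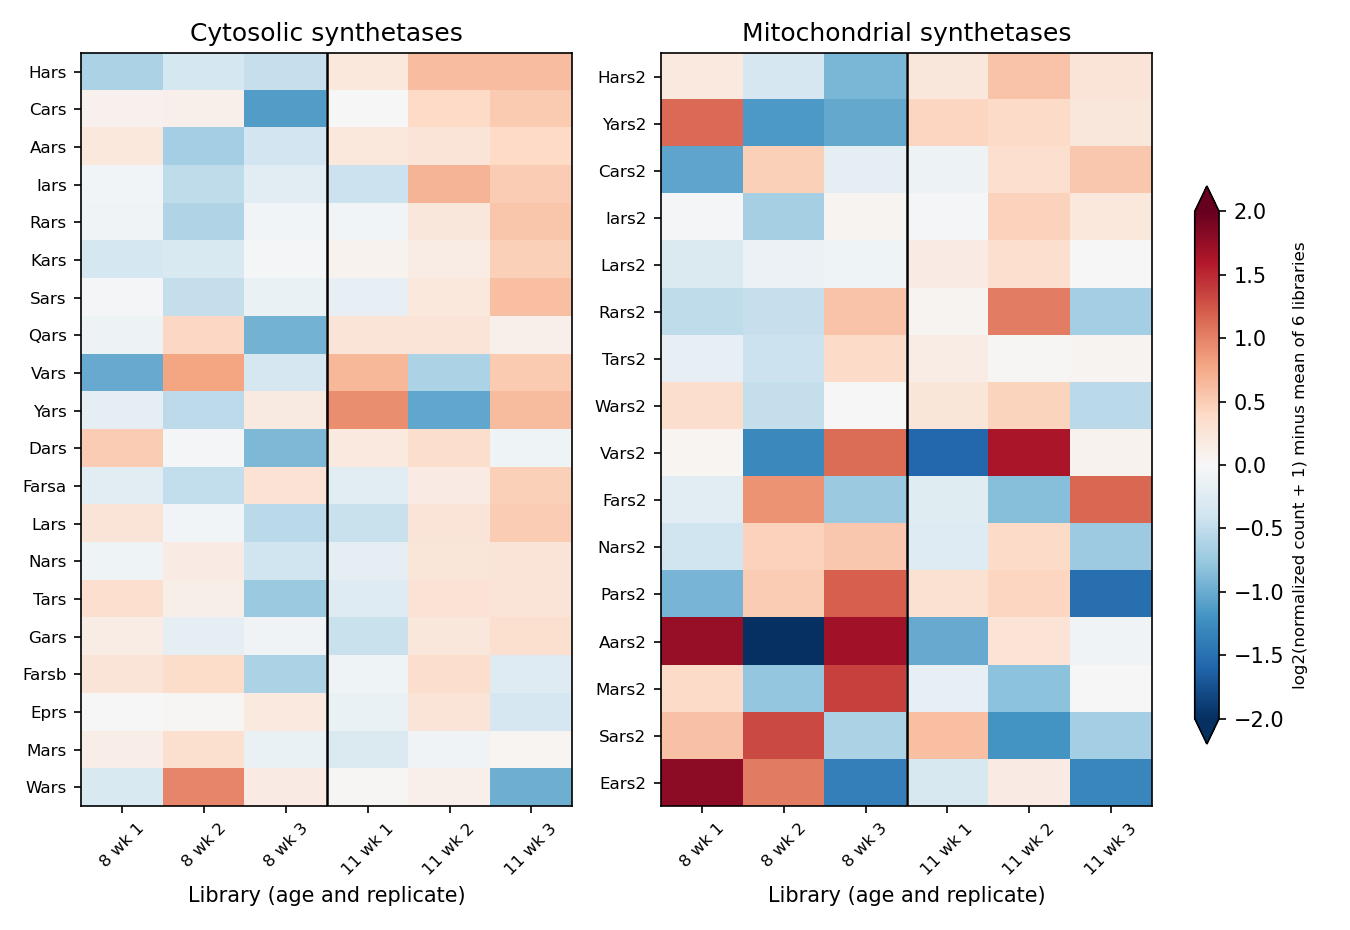
Log2(normalized count + 1) minus the mean of the 6 libraries (color, red above and blue below) for each cytosolic (left) and mitochondrial (right) synthetase gene in each library, with a line between 8 and 11 weeks. Red gathers in 11-week replicates 2 and 3 on the cytosolic side, where 11-week replicate 3 is highest for 10 of 20 genes, and the mitochondrial side shows stronger colors, with 11-week replicate 2 highest for 6 of 16 genes and 8-week replicate 2 lowest for 4.

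Hars, which encodes the cytosolic histidine enzyme, had the largest positive log2 fold change of all 36 genes. Its values were 642, 780 and 720 normalized counts in the 8-week libraries and 1155.8, 1518.2 and 1519.9 in the 11-week libraries. Every 11-week library lay above every 8-week library, with means of 714 ± 69.2 and 1398 ± 210 (SD, n = 3). The log2 fold change was 0.96 ± 0.31 (SE), with an adjusted p of 0.387 and an unadjusted p of 0.00637 (limma). The authors' deposited table gives Hars a log2 fold change of 0.89 with an adjusted p of 0.01, the only one of the 36 genes under 0.05 there, where 1.91% of genes with an adjusted p passed. DESeq2 on the recovered reads gave 0.97 ± 0.25 (SE, n = 3 per age; DESeq2 adjusted p = 0.0102).

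Hars2, the mitochondrial histidine enzyme, is the neighbour of Hars and is read from the opposite strand. In GRCm38 Hars (ENSMUSG00000001380) covers positions 36766530 to 36783205 of chromosome 18 on the minus strand, and Hars2 (ENSMUSG00000019143) positions 36783008 to 36792562 on the plus strand. Their exons share 195 bases, which is 7.97% of the exon bases of Hars and 4.56% of those of Hars2, and counting is not stated to have used strand. Hars2 stood at 305.8, 210.6 and 140.1 normalized counts in the 8-week libraries and 310.8, 395.2 and 319 in the 11-week libraries. The ages did not overlap, but 8-week replicate 1 (305.8) was nearly level with 11-week replicate 1 (310.8). The log2 fold change of Hars2 was 0.70 ± 0.51 (SE, n = 3 per age; limma adjusted p = 0.785). How many reads fell in the shared bases was not tested.

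In 5 of the 36 genes (13.9%) the ages did not overlap, all higher at 11 weeks, where 11.9% of all genes tested did not overlap, 6.81% higher and 5.12% lower. Among genes averaging 100 or more normalized counts the share without overlap, in either direction, was 15.3%. Beside Hars and Hars2 the synthetase genes without overlap were Kars, Rars and Lars2. Kars, the lysine enzyme of both cytosol and mitochondria, stood at 699.9, 723.2 and 867.8 normalized counts in the 8-week libraries and 937.9, 987.9 and 1243.5 in the 11-week libraries. Its log2 fold change was 0.46 ± 0.32 (SE, n = 3 per age; limma adjusted p = 0.772). Rars, the arginine enzyme, stood at 2674, 1846.7 and 2704.9 and then 2710.6, 3269.2 and 4095.8, so that 11-week replicate 1 exceeded the highest 8-week library by only a few counts. Its log2 fold change was 0.48 ± 0.25 (SE, n = 3 per age; limma adjusted p = 0.669).

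**Figure D3:**
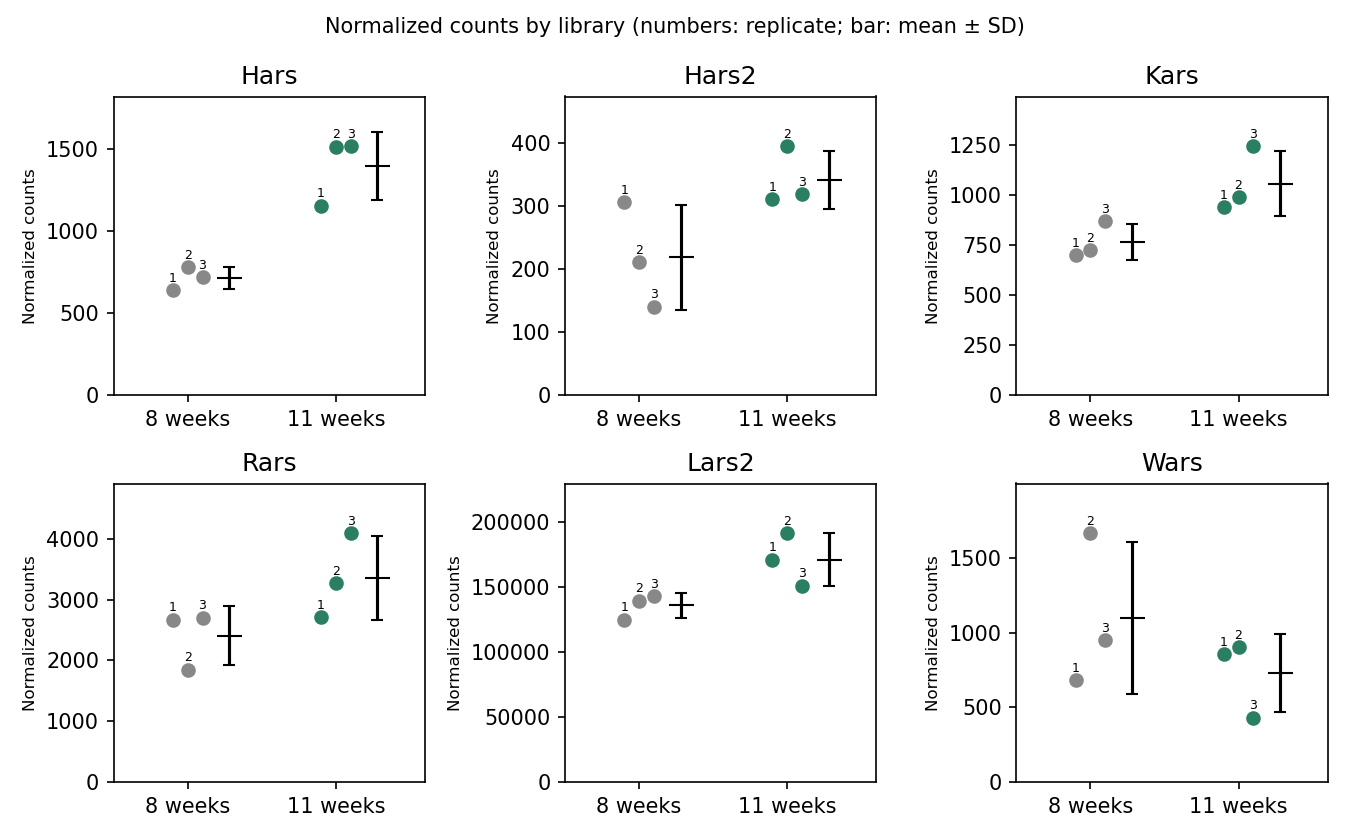
Normalized counts (y axis, from 0) of 6 synthetase genes in each library at 8 weeks (grey) and 11 weeks (green), with replicate numbers and bars for the mean ± SD of 3 libraries. Hars runs from 642 to 780 at 8 weeks and from 1155.8 to 1519.9 at 11 weeks, the ages also stay apart in Hars2, Kars, Rars and Lars2, and Wars overlaps.

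Aars and Cars, the alanine and cysteine enzymes, had the next largest positive differences among cytosolic genes. Aars stood at 1473, 793.8 and 979.6 normalized counts in the 8-week libraries and 1471.2, 1518.2 and 1684.9 in the 11-week libraries. The 11-week libraries were close together, and 8-week replicate 1 reached their level. Its log2 fold change was 0.57 ± 0.31 (SE, n = 3 per age; limma adjusted p = 0.674). Cars stood at 318.3, 324.2 and 138.4 and then 302.5, 395.2 and 433.2, with 8-week replicate 3 alone far below the rest, and its log2 fold change was 0.62 ± 0.51 (SE, n = 3 per age; limma adjusted p = 0.802). Exons of Exosc6 on the same strand cover 14.3% of the exon bases of Aars.

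Only 3 cytosolic genes had a negative log2 fold change, Wars, Mars and Eprs. Wars, the tryptophan enzyme and a known interferon gamma target, stood at 683, 1665.2 and 948 normalized counts in the 8-week libraries and 855.1, 903.2 and 429.6 in the 11-week libraries. Its highest value was 8-week replicate 2 and its lowest 11-week replicate 3, and the other 4 libraries lay between. The log2 fold change was -0.57 ± 0.40 (SE, n = 3 per age; limma adjusted p = 0.784). Mars, the methionine enzyme, stood at 1136.8, 1289.8 and 948 and then 852.4, 990.9 and 1065.9, a log2 fold change of -0.21 ± 0.30 (SE, n = 3 per age; limma adjusted p = 0.857). Eprs, a single protein that charges both glutamate and proline tRNAs, stood at 4049.8, 4084.1 and 4583.9 and then 3660.5, 4816.6 and 3179.5, a log2 fold change of -0.15 ± 0.22 (SE, n = 3 per age; limma adjusted p = 0.868). In both genes the ages overlapped.

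The other 12 cytosolic genes had log2 fold changes from 0.01 (Farsb) to 0.51 (Iars), all positive, with limma adjusted p of 0.702 to 0.997. Farsb, the beta subunit of the phenylalanine enzyme, and Gars, the glycine enzyme (0.07), turned negative when the libraries were scaled to their totals, and Farsb also with TMM scaling, edgeR and DESeq2. Iars, the isoleucine enzyme, stood at 2574.2, 1881.3 and 2318.9 normalized counts in the 8-week libraries and 1994.4, 4298.5 and 3810.3 in the 11-week libraries. Here too 11-week replicates 2 and 3 were high and replicate 1 lay inside the 8-week range. Yars, the tyrosine enzyme, did not follow that order: it stood at 469.9, 371.3 and 607.3 and then 1014.2, 259.1 and 830.2, with its highest value in 11-week replicate 1 and its lowest in 11-week replicate 2. The naming rule does not cover Iars and Yars, which were picked once their values were known.

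The enzymes fall into 2 structural classes with unrelated catalytic folds. Of the 10 cytosolic class II genes all had a positive log2 fold change, with a median of 0.29, and of the 9 class I genes 7 were positive, with a median of 0.37 (Eprs, which holds a domain of each class, is left out). The 8 genes of the multisynthetase complex had a median of 0.36 and the 12 others one of 0.31. These medians lie close together, and no test was made between them. The 3 scaffold genes of the complex had a median of 0.07, with log2 fold changes from -0.05 (Aimp1) to 0.21 (Aimp2) and limma adjusted p of at least 0.936.

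Mitochondrial synthetase genes had log2 fold changes of both signs, none of which passed limma, and varied more between libraries of one age. Summed without Lars2, they came to 4622, 3693.5 and 4813.6 normalized counts in the 8-week libraries and 4145.1, 5177.4 and 4176.3 in the 11-week libraries, with means of 4376 ± 599 and 4500 ± 587 (SD, n = 3). The 2 ages overlapped, with the highest sum in 11-week replicate 2 and the lowest in 8-week replicate 2. Relative to each gene's mean over the 6 libraries, the median mitochondrial gene stood at 0.36 in the former and -0.38 in the latter on the log2 scale, and between -0.005 and 0.019 in the other 4. The cytosolic sum divided by this sum was 6.72, 8.28 and 5.48 at 8 weeks and 7.001, 7.256 and 8.918 at 11 weeks, again overlapping, with means of 6.83 ± 1.41 and 7.73 ± 1.04 (SD, n = 3). The cytosolic median log2 fold change exceeded the mitochondrial by 0.23. Between libraries of one age this difference had an SD of 0.31, and it was -0.12 without 8-week replicate 3.

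The lowest mitochondrial log2 fold changes were those of Ears2, Sars2 and Mars2, the glutamate, serine and methionine enzymes. Ears2 stood at 327.2, 194 and 35.9 normalized counts in the 8-week libraries and 74.5, 104.8 and 37.2 in the 11-week libraries, a log2 fold change of -0.98 ± 0.89 (SE, n = 3 per age; limma adjusted p = 0.813). Its 8-week values spanned the whole range, from the highest to the lowest of the 6. Sars2 stood at 145.3, 241.1 and 61.5 and then 146.2, 41.3 and 59.8, a log2 fold change of -0.85 ± 0.82 (SE, n = 3 per age; limma adjusted p = 0.82). Mars2 stood at 393.2, 177.3 and 786.6 and then 270.3, 171.4 and 302.7, a log2 fold change of -0.65 ± 0.57 (SE, n = 3 per age; limma adjusted p = 0.805). In all 3 genes the ages overlapped.

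Beside Hars2, the highest mitochondrial log2 fold changes were those of Yars2 and Cars2, the tyrosine and cysteine enzymes. Yars2 stood at 389.6, 79 and 86.3 normalized counts in the 8-week libraries and 237.2, 229.8 and 205.7 in the 11-week libraries, so that 1 of the 8-week libraries was above and 2 were below all the 11-week libraries. Its log2 fold change was 0.69 ± 0.68 (SE, n = 3 per age; limma adjusted p = 0.821). Cars2 stood at 63.3, 185.6 and 115.3 and then 123.2, 168.4 and 192.1, a log2 fold change of 0.51 ± 0.68 (SE, n = 3 per age; limma adjusted p = 0.84). The other 9 mitochondrial genes had log2 fold changes from -0.53 (Aars2) to 0.43 (Iars2), 6 of them positive, with limma adjusted p of 0.794 to 0.989. In Aars2, picked once its values were known, 8-week replicate 2 stood at 6.9 normalized counts beside 160.5 and 153.7 in the other 8-week libraries and 23 to 57.5 at 11 weeks.

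Lars2, the mitochondrial leucine enzyme, stood apart from all other synthetase genes in level. Its values were 124869, 139641.9 and 143152.6 normalized counts in the 8-week libraries and 171133.9, 191501.8 and 151054 in the 11-week libraries. The ages did not overlap, with means of 135890 ± 9703 and 171230 ± 20224 (SD, n = 3) and a log2 fold change of 0.33 ± 0.12 (SE; unadjusted p = 0.0122, adjusted p = 0.453 by limma). With libraries scaled to their totals the log2 fold change was 0.24 with an unadjusted limma p of 0.207. Its mean was 149 times that of Iars2, the next mitochondrial gene, and per kilobase 111 times that of Rars2. Exons of Rab3gap2 on the opposite strand cover 22.9% of the exon bases of Iars2. Lars2 took 0.446% to 0.635% of all normalized counts outside mitochondrial ribosomal RNA.

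Lars2 (ENSMUSG00000035202) covers positions 123366940 to 123462664 of chromosome 9 on the plus strand in GRCm38. Bases 3278 to 3349 of its longest coding transcript, of 3894 bases, matched the noncoding gene Gm15564 at 98.6% identity over 72 bases. Gm15564 was itself abundant, at 40664.8, 53723.5 and 55939.9 normalized counts in the 8-week libraries and 63537.1, 65378.3 and 28888.1 in the 11-week libraries. From 8-week replicate 1 to 11-week replicate 2, in the order given, Gm15564 and Lars2 both rose from each library to the next. In 11-week replicate 3 Gm15564 was lowest of the 6 libraries, while Lars2 exceeded every 8-week library. How reads in the shared bases were counted was not tested, nor was whether all counts given to Lars2 came from its own transcripts. The search for matches compared the longest coding transcript of each gene with annotated GENCODE M21 transcripts only. Look-alike sequence outside those transcripts was not searched, nor were exon bases of a gene outside its longest coding transcript. For Lars2 the sum of all exon bases is 2.85 times that transcript. Of the other 35 genes only Iars had a match of at least 95% identity and 60 bases in a gene outside its own locus, the pseudogene Gm4849, which stood at 0 to 4.5 normalized counts.

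**Figure D4:**
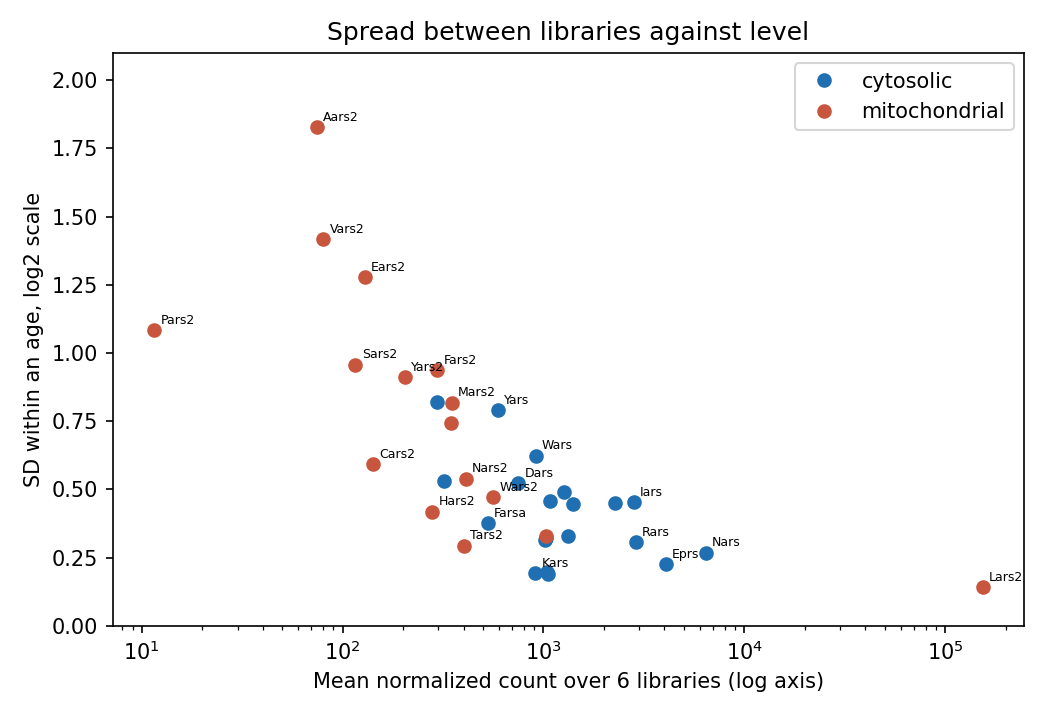
SD between libraries of one age on the log2 scale (y axis) against mean normalized count over 6 libraries (x axis, log scale) for the cytosolic (blue) and mitochondrial (red) synthetase genes, some of them labelled. Spread is largest in the low mitochondrial genes such as Aars2 (1.83) and smallest in Lars2 (0.14), which lies far to the right of all others.

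The wider spread of mitochondrial genes went with their lower counts. The SD within an age on the log2 scale had a median of 0.41 over cytosolic and 0.78 over mitochondrial genes, with 0.88 over all genes tested and 0.44 over genes with a mean of at least 100. Mean counts had a median of 1052 for cytosolic and 288 for mitochondrial genes. Coefficients of variation at 8 weeks ran from 7.05% (Eprs) to 64.6% (Vars) for cytosolic genes and from 7.14% (Lars2) to 95.8% (Yars2) for mitochondrial ones. At 11 weeks they ran from 6.09% (Qars) to 56.2% (Yars) and from 4.45% (Tars2) to 96.8% (Vars2). Pars2, the proline enzyme, was the lowest gene, at 4.5, 13.9 and 23.1 normalized counts in the 8-week libraries and 12, 13.1 and 2.7 in the 11-week libraries.

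Levels of different genes compare only per length, here normalized counts per kilobase of all annotated exon bases (GENCODE M21, GRCm38), as means ± SD over the 6 libraries. Leaving Lars2 aside, Nars, the asparagine enzyme, was highest at 1475 ± 263 per kilobase, followed by Rars at 893 ± 232. Farsb (535 ± 138) and Iars (534 ± 191) came next and did not differ beyond their spread, nor did Hars (432 ± 163) and Lars (423 ± 118), the leucine enzyme. The lowest were Pars2 (3.73), Vars2 (14.7), the valine enzyme, Aars2 (15.6) and Cars2 (19.5). The exon sum counts the exon bases of all annotated transcripts, and for Cars2 and Eprs it is 3.8 and 3.69 times the longest coding transcript. By longest coding transcript Eprs moved from rank 11 to rank 4 of 36 and Cars2 from rank 33 to rank 28, with Mars2 then at rank 33, while Nars and Rars stayed at ranks 2 and 3.

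For 13 amino acids a single cytosolic gene has a single mitochondrial counterpart in the list. Per kilobase of all exon bases, the cytosolic gene was higher in 12 of the 13 pairs, by 1.53 times (Yars over Yars2) to 25.1 times (Nars over Nars2), the exception being Lars and Lars2. The ratios depend on the length used: per kilobase of longest coding transcript, Yars and Yars2 stood at 204 and 72.9, and the closest pair was Cars and Cars2, at 98.9 and 74.3. The cytosolic log2 fold change exceeded the mitochondrial in 10 of the 13 pairs, and both had the same sign in 9. The widest gap was between Sars (0.43) and Sars2 (-0.85), followed by Aars (0.57) and Aars2 (-0.53). In the opposite direction Wars (-0.57) lay below Wars2 (0.09). None of these differences between paired genes was tested, and the pairs share libraries.

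**Figure D5:**
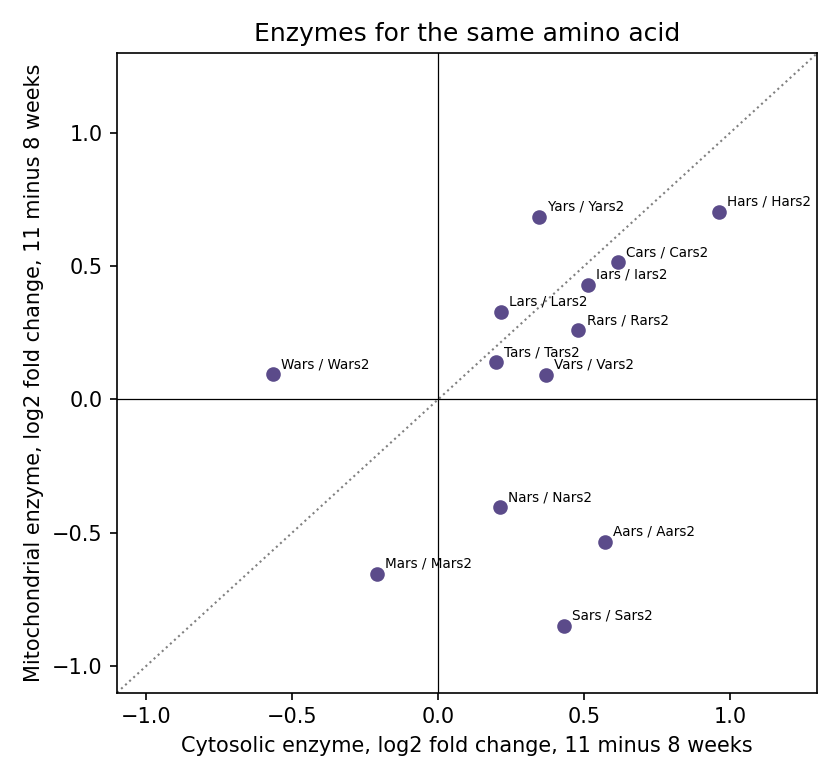
Log2 fold change (11 minus 8 weeks) of the mitochondrial gene (y axis) against that of the cytosolic gene (x axis) for the 13 amino acids with 1 gene in each compartment; the dotted line marks equal change. In 10 of the 13 pairs the point lies below the line, Hars and Hars2 are both positive (0.96 and 0.70), and Aars, Nars and Sars are positive while their mitochondrial counterparts are negative.

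Of 34 tested ATF4 target genes 21 were positive, with a median log2 fold change of 0.16, and 1 rose and 0 fell by limma, beside 0.0507% of all genes tested. At an unadjusted p under 0.05, 4 were higher and 2 lower, and for this and the lists that follow the shares over all genes tested are 4.76% higher and 3.27% lower. The one that rose was Nupr1, a stress-induced chromatin protein, at 1297.3, 1525.3 and 1833.7 normalized counts in the 8-week libraries and 3886.6, 3955.7 and 4947.8 in the 11-week libraries, a log2 fold change of 1.46 ± 0.24 (SE, n = 3 per age; limma adjusted p = 0.0396). Gpt2, a mitochondrial alanine aminotransferase, had a log2 fold change of 0.97 ± 0.27 (SE, n = 3 per age; limma adjusted p = 0.309). The authors' deposited table puts Nupr1 and Gpt2 under an adjusted p of 0.05 and no other gene of this list, where 1.91% of genes with an adjusted p there passed. In the further lists it puts Ciita, Eef2k and Mrpl12 under 0.05, with log2 fold changes there of -1.26, -0.82 and 1.42 and adjusted p of 0.002, 0.024 and 0.001. Stc2, which encodes stanniocalcin 2, was at 0, 1.4 and 0 and then 22.1, 12.1 and 103.3 normalized counts (limma adjusted p = 0.387).

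The list of stress kinases and ATF4 itself had 2 of 9 genes positive and a median of -0.16, with no call (0 at an unadjusted p under 0.05). Atf4 stood at 4994, 5973.7 and 5267.2 normalized counts in the 8-week libraries and 7026.7, 5566.6 and 7768.3 in the 11-week libraries, overlapping, with a log2 fold change of 0.32 ± 0.20 (SE, n = 3 per age; limma adjusted p = 0.745). Eif2ak1, the heme-regulated kinase of this group, was lower in every 11-week library, at 1789.5, 1785.8 and 1916.6 and then 1330.5, 1319.6 and 1108.5, a log2 fold change of -0.55 ± 0.26 (SE, n = 3 per age; limma adjusted p = 0.634). Impact, an inhibitor of GCN2 activation, had a log2 fold change of -0.43 (limma adjusted p = 0.693).

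Interferon gamma response genes, the group to which Wars also responds, had 12 of 21 tested genes positive and a median of 0.09. None passed limma, with 2 higher and 3 lower at an unadjusted p under 0.05. The ages did not overlap in 23.8% of the 21 genes, 1 higher and 4 lower, beside 11.9% of all genes tested. Ciita and Gbp5, both induced by interferon gamma, had log2 fold changes of -1.52 ± 0.33 and -1.05 ± 0.38 (SE, n = 3 per age; limma adjusted p = 0.147 and 0.479), with no overlap between the ages. Socs1, an inhibitor of cytokine signalling, was higher in every 11-week library, at 2.7, 0 and 7.7 and then 34.9, 37.3 and 48 normalized counts (limma adjusted p = 0.492).

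Other parts of the translation machinery had no call by limma either. Ribosome biogenesis genes linked to MYC had 15 of 18 positive and a median of 0.39 (1 higher at an unadjusted p under 0.05). The 3 with the smallest p were Rrp9, Ppan and Wdr43, which act in making ribosomal subunits, at 2.37, 1.21 and 0.48 (log2 fold change, limma adjusted p = 0.616, 0.671 and 0.695). Cytosolic elongation factors had 3 of 7 positive and a median of 0.00, and their smallest p was that of Eef2k, the kinase that inhibits the elongation factor eEF2. Eef2k stood at 1032.5, 1300.9 and 1350.3 normalized counts and then 587.5, 666.3 and 723.3, lower in every 11-week library, with a log2 fold change of -0.89 ± 0.32 (SE, n = 3 per age; limma adjusted p = 0.453). Eef1b2 and Eef1d, subunits of the exchange factor that reloads eEF1A, came to -0.26 and 0.35 on the log2 fold change scale (limma adjusted p = 0.801 and 0.803).

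In mitochondria, 49 of 76 tested ribosomal protein genes were positive, with a median of 0.25 and no call (2 higher and 1 lower at an unadjusted p under 0.05). Mrpl12 stood at 170.3, 98.4 and 158 normalized counts and then 513.1, 476.8 and 415.1, a log2 fold change of 1.75 ± 0.51 (SE, n = 3 per age; limma adjusted p = 0.31). Mrps5 and Mrpl13 came to -1.19 and 1.05 on the log2 fold change scale (limma adjusted p = 0.551 and 0.565). Mitochondrial translation factors had 5 of 10 positive and a median of 0.01, with Tsfm, Mtif2 and Guf1 at -1.44, -0.72 and -0.69 (limma adjusted p = 0.777, 0.781 and 0.792). The 4 genes that amidate or formylate charged mitochondrial tRNAs had a median of 0.12, with Mtfmt, Gatc and Gatb at 0.67, 0.21 and -0.34 (limma adjusted p = 0.833, 0.839 and 0.883). Neither of the last 2 lists had a gene at an unadjusted p under 0.05.

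Of 9 related genes, such as editing enzymes and tRNA hydrolases, 4 were positive, with a median of -0.14 and no call by limma (1 higher at an unadjusted p under 0.05). Tarsl2, a threonine synthetase paralog of Tars, stood at 209.5, 73.4 and 26.5 normalized counts and then 161.8, 565.5 and 350.8, overlapping, with a log2 fold change of 2.08 ± 0.78 (SE, n = 3 per age; limma adjusted p = 0.489). Dtd1, which removes D-amino acids from tRNA, was lower in every 11-week library, at 230.9, 394.8 and 298.9 and then 219.8, 65.5 and 137.8, a log2 fold change of -1.25 ± 0.61 (SE, n = 3 per age; limma adjusted p = 0.637). Ptrh2, a peptidyl-tRNA hydrolase, had a log2 fold change of -0.58 ± 0.28 (SE, n = 3 per age; limma adjusted p = 0.643).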

How the data were processed

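The deposited table gives 1 signal value per gene and library, and these values behave as read counts per gene, each library divided by its own size factor. STAR 2.4, DESeq2 1.6 and the GRCm38 build appear, with no role stated, among the submitters' processing notes. Not given in the sources used here were both counting tool and annotation. The same deposited table holds the authors' own log2 fold change, linear fold ratio, p-value and adjusted p-value. Values were whole multiples of 1 step per library within 0.05 normalized counts for at least 99.857% of nonzero values, and reads were recovered from them. No 2 libraries were identical.

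The test was limma (trend, robust) on log2(normalized count + 1), genes with a mean of at least 1 in either age, Benjamini-Hochberg threshold 0.05, age as the only term. Each column name shares its age and number with exactly 1 sample title. The members and lists were chosen with earlier results of these data known. Named genes are members that passed, whose ages did not overlap, or with the 3 largest or smallest log2 fold changes per compartment, and up to 3 genes of smallest p per list. Conventional dendritic cell and endothelial markers summed to 5268.7 to 6885.7 and 419.8 to 543.1 normalized counts at 8 weeks and 3991.9 to 5166.6 and 681.5 to 1212.7 at 11 weeks, with medians of opposite sign to the sums (0.14 and -0.12, log2 fold change). Alternatives covered pseudocount, filter, scaling, test, a replicate block and leaving out each library. The steps were tested on simulated data. Tests used limma 3.58.1, edgeR 4.0.16 and DESeq2 1.42.0 under R 4.3.3. Tables used pandas 2.3.3 and numpy 2.4.6 under Python 3.11.15, and plots matplotlib 3.10.9.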

Additional observations from a re-analysis of the deposited data

How the results depend on the processing

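The test as reported called 11 genes, 8 higher and 3 lower, and 0 synthetase genes. The gene count was 4, all higher, with scaling to library totals, 26 with limma-voom and 418 with DESeq2; with upper-quartile scaling 10 were higher and 2 lower. With a replicate block it was 45, none a synthetase; the shared numbers were not taken as pairs, since deviations of same-numbered libraries correlated at -0.0144 to -0.0056 and none correlated best with its own number. Leaving out 1 library gave 3 to 16 genes, with the filter set anew: 3 without 8-week replicate 1, 4 without 11-week replicate 1 and 16 without 11-week replicate 2 (7 higher calls and 4 lower without 11-week replicate 3). DESeq2 called 1 synthetase gene, Hars, and every other alternative listed above 0. The cytosolic median log2 fold change stayed positive, from 0.14 to 0.40 over all alternatives. The mitochondrial median ran from -0.145 to 0.259 when 1 library was left out, negative without 8-week replicate 2 (-0.08) or 11-week replicate 2 (-0.145). The cytosolic minus mitochondrial difference ran from -0.117 to 0.426, negative without 8-week replicate 3. In 13 of the 36 genes, all with limma adjusted p of at least 0.839, the sign changed under at least 1 alternative. With 3 libraries per age and mean counts of 11.6 to 6425 outside Lars2, the spread between libraries limits what can be called.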
